A study of Bos taurus with 10 samples.

Results

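The genes described here are markers of pericytes and vascular smooth muscle, the mural cells that wrap capillaries and larger vessels, in the bovine corpus luteum. A list of 10 genes was set (ACTA2, TAGLN, MYH11, CNN1, DES, RGS5, PDGFRB, PDGFB, CSPG4 and MCAM), and a gene counted as measured when a probeset of the array was annotated to it alone. That left 9 of the 10, each with 1 probeset, out of 18010 genes measured in this way. ACTA2, smooth muscle alpha-actin, was not analysed, because its probeset is annotated to 1 other actin gene, ACTG2, as well. Tissue came from cows (Bos taurus) given selenium in the form that the labels call MIX (5 samples, numbered 1, 8, 9, 10 and 11) or in the form they call ISe (5 samples, numbered 2, 3, 5, 6 and 7), and all of it was taken on day 7 of the cycle. The labels name no breed, age, dose or selenium-free group. Nor do they say that the samples are from separate cows, and the p-values cover only sample-to-sample spread, which may be technical. RNA of each sample was hybridised to 1 single-colour whole-transcript array, and the number of arrays limits the precision. Values are log2 signal, on which a step of 1 is a doubling.

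Mural cells give vessels their tone and stability. Endothelial cells of a growing vessel release the platelet-derived growth factor encoded by PDGFB, and pericytes carry its receptor, PDGFRB, and follow it to the new vessel. As smooth muscle cells mature they build a contractile apparatus of actin, myosin and their regulators, whose genes are switched on by serum response factor and its coactivator myocardin. The corpus luteum is one of the most heavily vascularised tissues of the body, and its capillary bed is laid down in the days after ovulation.

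The arrays carried the signal of luteal tissue. The 10 steroidogenic luteal markers measured of 12 listed (STAR and FDXR had no probeset of their own) averaged between 11.26 and 11.46 over the MIX arrays and between 11.34 and 11.53 over the ISe arrays, against array medians of 5.99 to 6.04. The lowest of the 10 were INHA, at means of 6.29 in MIX and 6.43 in ISe, and NR5A1, at 8.34 and 8.60. INHA in MIX 1, at 5.66, lay below the array medians. Markers of striated muscle, which would also contribute DES, were dim, with 19 of 20 at a mean below the array medians. On the first principal component of all tested probesets MIX 8 scored 32.8, far from the -9.5 to 1.3 of the rest, and on the second MIX 1 scored 26.6, far from -11.8 to 6.1. The differences of the markers and some other results are therefore also given without these 2 arrays. In the same samples 12 of 13 macrophage markers had an unadjusted p under 0.05, with the higher mean in MIX, beside 4.79% of all probesets at that threshold in either direction. By the limma fit 0 of the 13 passed after adjustment, the smallest adjusted p being that of FCGR1A (0.809). The mean level of the list was 7.06 to 7.34 over the MIX arrays and 6.48 to 6.99 over the ISe arrays. The correlation of the macrophage list with the mural cell markers is given below, and its part in their values was not tested.

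The design holds 1 comparison, that of MIX with ISe samples, and its question is whether luteal expression differs with the selenium form the cows received. None of the 9 mural cell markers differed between the groups past the threshold. The limma test (moderated linear model, two-sided, Benjamini-Hochberg adjustment over 19145 probesets) called 0 of the 9 at an adjusted p under 0.05, with adjusted p-values from 0.941 to 0.999. Over the whole array 0% of probesets were called. At an unadjusted p under 0.05 the limma fit also gave 0 of the markers, beside 4.79% of all probesets. The smallest unadjusted p of the limma fit was that of PDGFB (0.217). The MIX and ISe arrays overlapped for all 9 genes, while 0.642% of all probesets had groups that did not overlap. The mean was higher in MIX for 6 genes and lower for 3, beside 50.4% of all probesets higher in MIX, and the median log2 difference of the 9 was 0.06, against 0.00106 for all probesets. Without MIX 1 and MIX 8 that median was -0.04, and 3 of the 9 genes were higher in MIX, beside 49.7% of all probesets. Because whole tissue was measured, fewer mural cells and less of a transcript per cell cannot be told apart in any of these values.

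**Figure D1:**
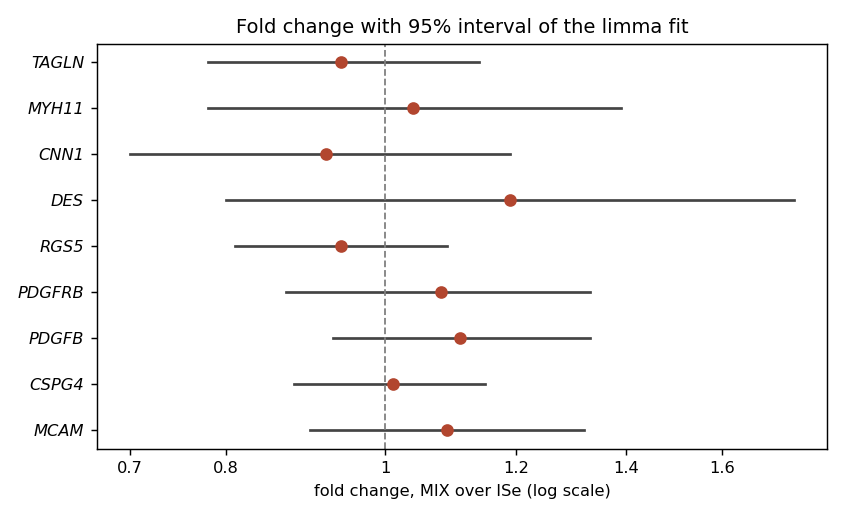
Fold change of each of the 9 markers, MIX over ISe, on a log axis; points are the estimates of the limma fit and lines its 95% intervals. Every interval includes 1, the narrowest belong to CSPG4 and RGS5, and the widest, 0.80 to 1.77, to DES.

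How large a difference could have been hidden varied by gene. The 95% intervals of the fold change lay inside 0.8-fold to 1.25-fold for 2 genes, RGS5 and CSPG4. Over all 9 genes the bounds reached 0.70 (CNN1) and 1.77 (DES). The markers were more variable between samples of 1 group than most genes were: the within-group SD ran from 0.14 to 0.48 log2 with a median of 0.22, against a median of 0.15 over the 18010 genes, and 8 of the 9 lay above that median. DES had a larger within-group SD than 98.2% of genes, MYH11 than 93.3% and CNN1 than 91.2%. RGS5, also above the median, had a larger one than only 52.6%. The genes were not matched for signal level.

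Of the contractile genes, TAGLN encodes transgelin, an actin-binding protein of smooth muscle. Its level was 9.35, 9.70, 9.29, 9.68 and 9.46 in MIX 1, 8, 9, 10 and 11, against 9.39, 9.98, 9.38, 9.55 and 9.61 in ISe 2, 3, 5, 6 and 7. ISe 3 was the highest sample and MIX 9 the lowest, and the groups overlapped. The log2 difference was -0.08 ± 0.13 (SE of the limma fit), a fold change of 0.94 with a 95% interval of 0.78 to 1.14 (adjusted p = 0.964).

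MYH11 encodes the smooth muscle myosin heavy chain, the motor of contraction. It was at 8.16, 8.68, 7.81, 8.38 and 8.28 in the MIX samples in the same order, against 8.04, 8.79, 8.10, 8.23 and 7.83 in the ISe samples. ISe 3 and MIX 8 were the 2 highest and MIX 9 and ISe 7 the 2 lowest, so each group held 1 of either kind. The means were 8.26 ± 0.32 over the MIX samples and 8.20 ± 0.36 over the ISe samples (SD, n = 5 each), a log2 difference of 0.06 ± 0.19 (limma adjusted p = 0.986), which was -0.04 without MIX 1 and MIX 8.

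CNN1 encodes calponin, an actin-binding protein that restrains the myosin motor. It was at 7.28, 7.90, 7.54, 8.01 and 7.32 in the MIX samples, against 7.51, 8.23, 7.78, 7.59 and 7.58 in the ISe samples. The highest sample was again ISe 3, while MIX 1 and MIX 11 lay below every ISe sample. The log2 difference was -0.13 ± 0.17, with a fold change of 0.92 and an interval of 0.70 to 1.19 (limma adjusted p = 0.957).

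DES encodes desmin, the intermediate filament of muscle cells and of many pericytes, and was the most variable of the markers. It was at 6.68, 6.48, 6.19, 7.25 and 6.55 in the MIX samples, against 5.92, 6.97, 6.96, 6.17 and 5.87 in the ISe samples. The ISe samples fell into 2 near 7 and 3 near 6. Of these ISe 2 and ISe 7 lay below the array medians, and the highest of all samples was MIX 10. The spread over the 10 arrays was 2.61-fold from lowest to highest, and the groups differed by 0.25 ± 0.26 log2 (limma adjusted p = 0.946).

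**Figure D2:**
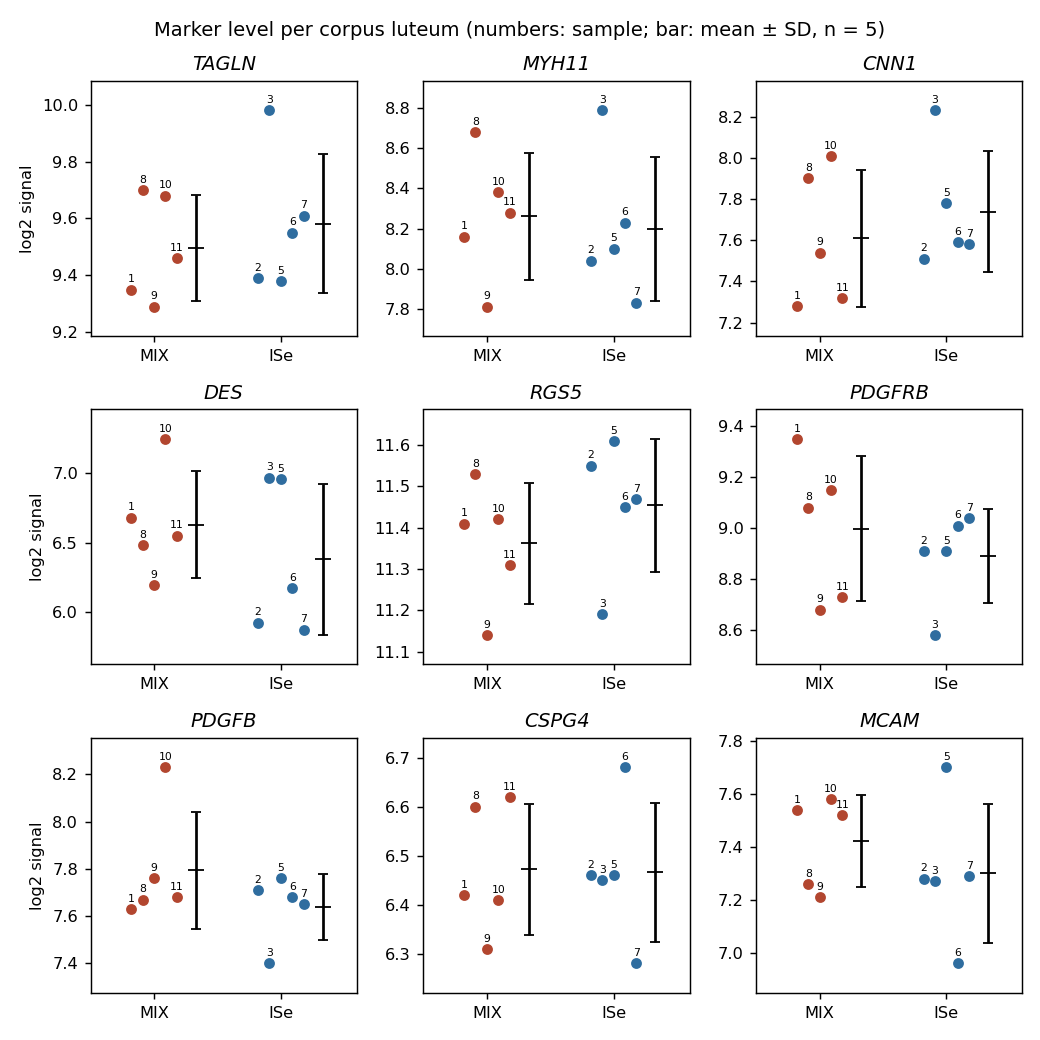
Level of each measured marker (log2 signal) in the 5 MIX samples, left, and the 5 ISe samples, right; small numbers name the sample, and bars show the mean ± SD (n = 5). Axes differ between panels and do not start at 0. The groups overlap in every panel, and ISe 3 is the highest sample for TAGLN, MYH11 and CNN1 and the lowest for PDGFRB and PDGFB.

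Among the pericyte genes, RGS5 encodes a regulator that shortens G protein signalling and is a widely used marker of pericytes. Its level was 11.41, 11.53, 11.14, 11.42 and 11.31 in the MIX samples, against 11.55, 11.19, 11.61, 11.45 and 11.47 in the ISe samples. MIX 9 and ISe 3 were the 2 lowest, and the other samples lay within 11.31 to 11.61. The log2 difference was -0.09 ± 0.10, a fold change of 0.94 with an interval of 0.81 to 1.09 (limma adjusted p = 0.946).

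PDGFRB, the receptor through which pericytes sense platelet-derived growth factor, was at 9.35, 9.08, 8.68, 9.15 and 8.73 in the MIX samples, against 8.91, 8.58, 8.91, 9.01 and 9.04 in the ISe samples. MIX 1, 8 and 10 lay above every ISe sample, but MIX 9 and 11 lay below 4 of the 5 ISe samples. The means were 9.00 ± 0.29 over the MIX samples and 8.89 ± 0.18 over the ISe samples (SD, n = 5 each), a log2 difference of 0.11 ± 0.14 (limma adjusted p = 0.954). Without MIX 1 and MIX 8 it was -0.04.

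CSPG4 encodes the NG2 proteoglycan of the pericyte surface and varied least of the markers. It was at 6.42, 6.60, 6.31, 6.41 and 6.62 in the MIX samples, against 6.46, 6.45, 6.46, 6.68 and 6.28 in the ISe samples. The group means, 6.47 ± 0.13 over the MIX samples and 6.46 ± 0.14 over the ISe samples (SD, n = 5 each), were 0.01 ± 0.09 apart, with a fold change of 1.01 and an interval of 0.88 to 1.15 (limma adjusted p = 0.999).

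MCAM encodes CD146, an adhesion molecule found on pericytes and smooth muscle and also on endothelial cells. It was at 7.54, 7.26, 7.21, 7.58 and 7.52 in the MIX samples, against 7.28, 7.27, 7.70, 6.96 and 7.29 in the ISe samples. All 5 MIX samples lay between the highest ISe sample, ISe 5, and the lowest, ISe 6. The log2 difference was 0.12 ± 0.13 (limma adjusted p = 0.946).

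The ligand gene PDGFB was at 7.63, 7.67, 7.76, 8.23 and 7.68 in the MIX samples, against 7.71, 7.40, 7.76, 7.68 and 7.65 in the ISe samples. MIX 10 lay above and ISe 3 below all the others, which were within 7.63 to 7.76. The means were 7.79 ± 0.25 over the MIX samples and 7.64 ± 0.14 over the ISe samples (SD, n = 5 each), with a log2 difference of 0.15 ± 0.12 (limma adjusted p = 0.941). An exact permutation test over the 252 splits of the arrays gave p = 0.373, where the smallest p that 5 against 5 allows is 0.00794.

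Samples of both groups lay at the high and at the low end of the markers. Averaged over the 4 contractile genes, each centred on its mean over the 10 arrays, ISe 3 was highest at 0.51 log2, followed by MIX 10 at 0.35 and MIX 8 at 0.20. The lowest were MIX 9 at -0.28, ISe 2 at -0.27 and ISe 7 at -0.26. Averaged over the 4 pericyte genes, MIX 1 was highest at 0.14, ISe 5 was at 0.12 and MIX 10 at 0.10, while MIX 9 at -0.21 and ISe 3 at -0.18 were lowest. ISe 3 was thus at opposite ends of the 2 averages: the 4 contractile genes were all above their means there, and TAGLN, MYH11 and CNN1 had their highest value in it. PDGFRB and PDGFB had their lowest value in the same sample. MIX 9 was low on both averages, with 8 of the 9 markers below their means, and MIX 10 was high on both, with 8 of 9 above. Over the 10 arrays the 2 averages correlated at r = 0.06, and without ISe 3, a setting chosen after the values were seen, at r = 0.62. These correlations describe 1 set of arrays that both averages share.

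**Figure D3:**
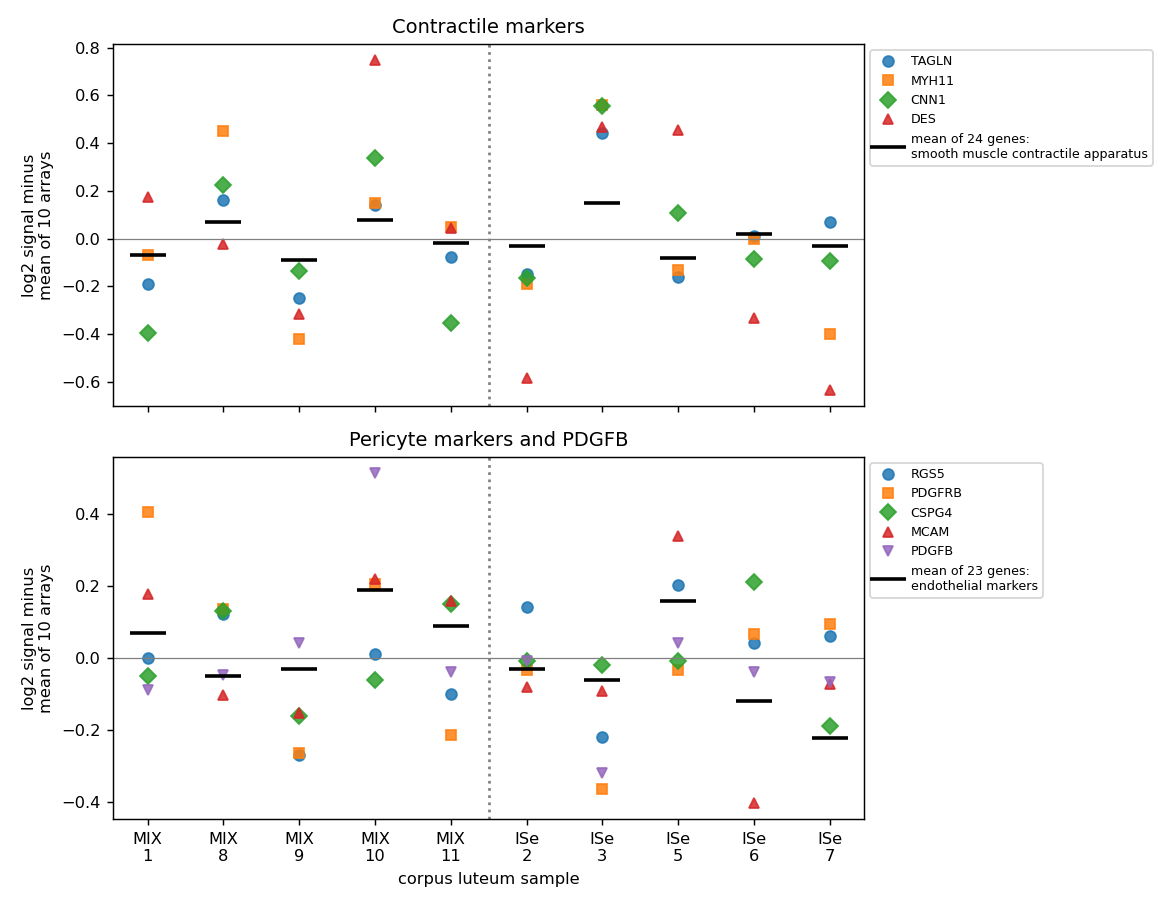
Each marker's log2 signal minus its mean over the 10 arrays, by sample, for the contractile genes (top) and the pericyte genes with PDGFB (bottom); black dashes are the mean of 24 contractile apparatus genes (top) and of 23 endothelial markers (bottom), none of them among the markers plotted. The contractile genes are high together in ISe 3, where PDGFRB, PDGFB and RGS5 are low.

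Among the 36 pairs of markers, the closest were TAGLN with CNN1 (Pearson r = 0.81, permutation p = 0.00438, adjusted p = 0.126; Spearman rho = 0.75, permutation p = 0.0175, adjusted p = 0.315) and TAGLN with MYH11 (r = 0.78, permutation p = 0.007, adjusted p = 0.126; rho = 0.76, permutation p = 0.0153, adjusted p = 0.315). No pair passed 0.05 after adjustment over the 36. Without the 2 samples farthest from the TAGLN median, MIX 9 and ISe 3, r was 0.69 for CNN1 and 0.50 for MYH11. With the group means removed it was 0.80 and 0.83, and without MIX 1 and MIX 8 it was 0.78 and 0.80. RGS5 and PDGFRB had r = 0.58 (permutation p = 0.0797, adjusted p = 0.478) and rho = 0.37 (permutation p = 0.295, adjusted p = 0.993). That r was -0.02 without MIX 9 and ISe 3, the 2 samples farthest from the RGS5 median. Leaving them out also narrows the range of RGS5, so it cannot show whether the relation rests on them. The r was 0.71 with the group means removed and 0.71 without MIX 1 and MIX 8. PDGFB and its receptor gene PDGFRB had r = 0.38 (permutation p = 0.289, adjusted p = 0.974) and rho = -0.04 (permutation p = 0.926, adjusted p = 0.993). Their r was 0.39 without MIX 1 and ISe 3, 0.32 with the group means removed and 0.68 without MIX 1 and MIX 8.

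The markers were also set against 7 lists of other genes, each list taken as the mean of its centred genes on an array, which gives 63 relations. The wider contractile apparatus list held 24 genes, some of actin, myosin, tropomyosin or their regulators and others such as PLN, KCNMB1 and SYNM. TAGLN followed this list with r = 0.95 (permutation p = 7.00e-05, adjusted p = 0.00441) and rho = 0.94 (permutation p = 2.40e-04, adjusted p = 0.0151). MYH11 followed it with r = 0.87 (permutation p = 8.30e-04, adjusted p = 0.0261) and rho = 0.87 (permutation p = 0.00215, adjusted p = 0.0677). These 2 of the 63 relations passed after adjustment by Pearson's r, and 1 of them, that of TAGLN, by Spearman's rho. Without the 2 samples farthest from each gene's median, r was 0.89 for TAGLN and 0.68 for MYH11. With the group means removed it was 0.96 and 0.88. CNN1 had r = 0.78 with the same list (permutation p = 0.00763, adjusted p = 0.12; rho = 0.66, permutation p = 0.0438, adjusted p = 0.401) and 0.43 without MIX 10 and ISe 3. For DES it was r = 0.41 (permutation p = 0.239, adjusted p = 0.837; rho = 0.35, permutation p = 0.332, adjusted p = 0.805). With the macrophage list TAGLN, MYH11, CNN1 and DES had r of 0.21, 0.52, 0.19 and 0.57 (adjusted permutation p = 0.89, 0.69, 0.89 and 0.546). With the group means removed these were 0.70, 0.79, 0.69 and 0.63, for which no p was taken. For RGS5, PDGFRB, PDGFB, CSPG4 and MCAM the values so adjusted for group were -0.15, 0.05, -0.19, 0.35 and -0.12.

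Of the 7 lists, the endothelial one had the highest r with MCAM and with DES, and differences between correlations were not tested. MCAM had r = 0.82 with the mean of 23 endothelial markers (permutation p = 0.00405, adjusted p = 0.085; rho = 0.71, permutation p = 0.0269, adjusted p = 0.401), and 0.80 without ISe 5 and ISe 6. DES had r = 0.77 (permutation p = 0.00998, adjusted p = 0.126; rho = 0.66, permutation p = 0.0446, adjusted p = 0.401), and 0.53 without MIX 10 and ISe 7. Neither passed after adjustment. For RGS5, PDGFRB and CSPG4 the r with the endothelial list was 0.11, 0.14 and 0.09 (adjusted permutation p-values above 0.05, as for every relation other than the 2 named). The pericyte markers did not follow the list of 24 further pericyte genes past the threshold either. There r was 0.28 for RGS5, 0.30 for PDGFRB, 0.43 for CSPG4 and 0.38 for MCAM (adjusted permutation p = 0.89, 0.89, 0.837 and 0.889). In that list 6 of the 24 genes had a mean below the array medians, so its average rests in part on dim signal.

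**Figure D4:**
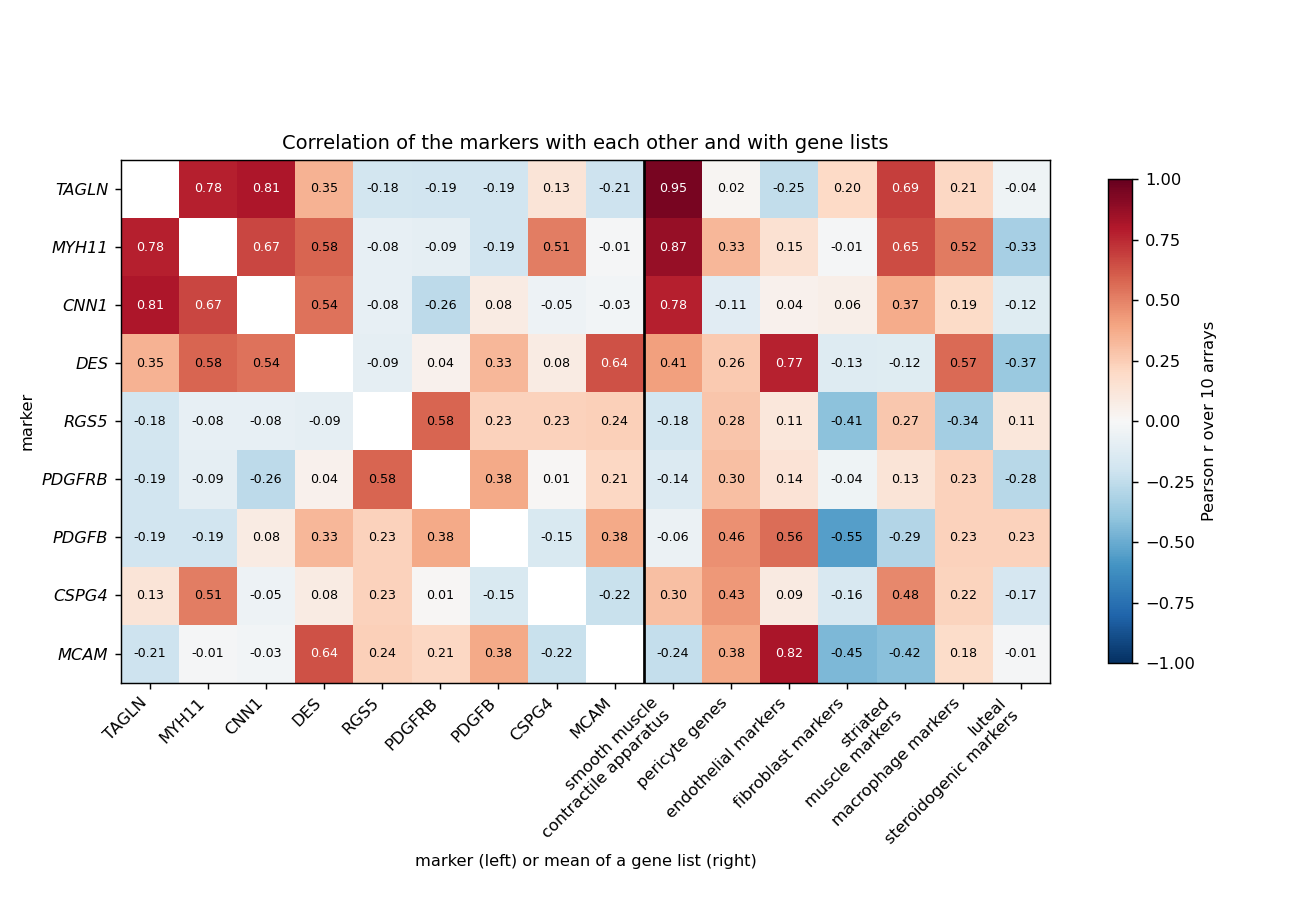
Pearson's r over the 10 arrays between the 9 markers (left block) and between each marker and the mean of a gene list (right block). TAGLN, MYH11 and CNN1 form a block with r of 0.67 to 0.81 and r of 0.78 to 0.95 with the contractile apparatus, while MCAM and DES have their highest list value, 0.82 and 0.77, with the endothelial markers.

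**Figure D5:**
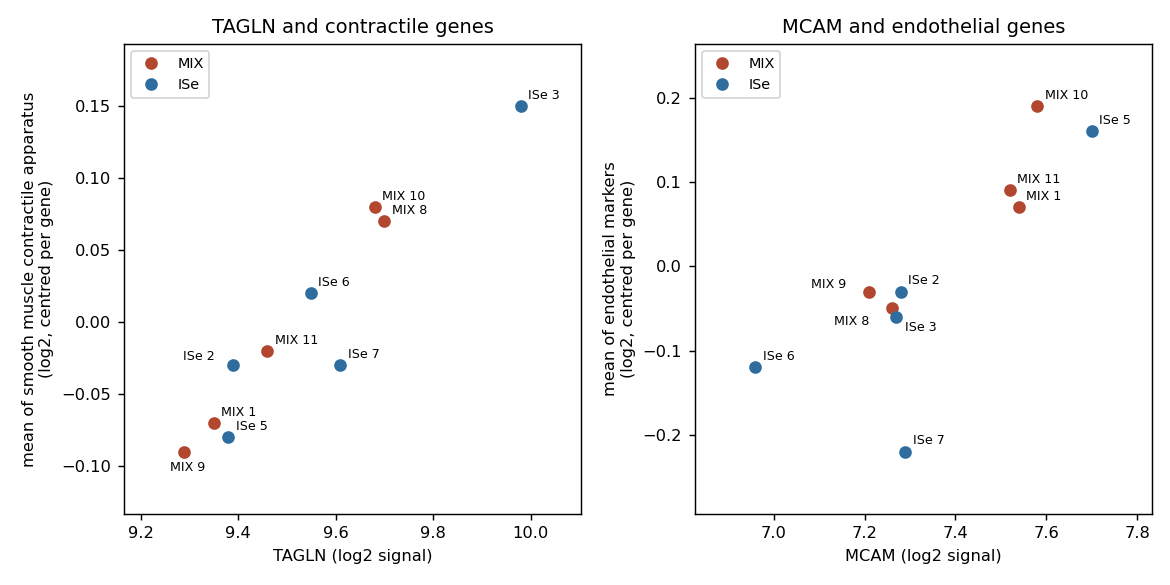
Left, TAGLN level against the mean of 24 contractile apparatus genes; right, MCAM level against the mean of 23 endothelial markers; each point is 1 sample and both vertical axes are log2 signal centred per gene. MIX and ISe samples are mixed along both relations, with ISe 3 at the upper end of the left one.

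Beyond the 9 markers, the wider sets of mural cell genes also gave no call between MIX and ISe. Of 26 contractile apparatus genes listed, 24 were measured: 9 had a higher and 15 a lower mean in MIX, the median log2 difference was -0.02, and 0 had an unadjusted p under 0.05. The smallest p-values belonged to MUSTN1 at 0.37 ± 0.17 (log2 difference ± SE), to the tropomyosins TPM2 at -0.14 ± 0.09 and TPM1 at -0.10 ± 0.06, and to leiomodin, LMOD1, at -0.08 ± 0.07, each with a limma adjusted p of 0.941. The pattern across samples seen in TAGLN was visible here too, with 20 of the 24 genes above their own mean in ISe 3 and 9 at their highest value there, against 2 above their mean in MIX 9. Of 18 genes of transcription control in mural cells, 16 were measured, with a median of 0.05 and 0 at an unadjusted p under 0.05. NOTCH3, the Notch receptor of vascular smooth muscle and pericytes, was at 0.17 ± 0.09, MRTFB at 0.07 ± 0.05, HEYL, a Notch target, at 0.09 ± 0.07, and KLF4, which counters the contractile state, at 0.16 ± 0.13.

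In a list of 24 further pericyte genes, all measured, 16 had a higher and 8 a lower mean in MIX, with a median of 0.03. AOC3, an amine oxidase and adhesion protein of smooth muscle and endothelium, was the only one at an unadjusted p under 0.05, which is 4.17% of the list beside 4.79% of all probesets. It was at 7.50, 7.44, 6.90, 7.35 and 7.34 in the MIX samples, against 7.06, 6.73, 6.95, 6.93 and 6.79 in the ISe samples. The 4 MIX samples other than MIX 9 lay above every ISe sample. The log2 difference was 0.41 ± 0.11, with an unadjusted p of 0.00362 and a limma adjusted p of 0.941. After NOTCH3, the next in order were ADGRF5 at 0.17 ± 0.10 and GUCY1A1, a subunit of the nitric oxide receptor, at -0.13 ± 0.08.

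The 12 genes of platelet-derived growth factor signalling, which include PDGFB and PDGFRB, had a median of 0.06, with 9 higher and 3 lower in MIX and 0 at an unadjusted p under 0.05. Without MIX 1 and MIX 8 the median was -0.02, with 5 of the 12 higher. Besides PDGFB the smallest p-values were those of PLCG1, a phospholipase that the receptor activates, at 0.11 ± 0.07, PDGFRL at -0.10 ± 0.10 and NRP1, a co-receptor, at 0.08 ± 0.08. Of 18 signals that pass between endothelium and mural cells, 17 were higher on average in MIX, and 14 without MIX 1 and MIX 8, beside 50.4% and 49.7% of all probesets. The median was 0.11, with 1 gene at an unadjusted p under 0.05, TEK, the endothelial receptor of angiopoietins, at 0.16 ± 0.07 (limma adjusted p = 0.941). That is 5.56% of the list, beside 4.79% of all probesets. TGFB1 was at 0.15 ± 0.08, TGFBR1 at 0.09 ± 0.06 and NOTCH4 at 0.14 ± 0.10. The 23 endothelial markers, which share TEK and TIE1 with those signals, had a median of 0.10, with 20 higher in MIX, and after TEK the smallest p-values were those of FLT1 at 0.23 ± 0.11, PROX1 at 0.46 ± 0.26 and EMCN at 0.18 ± 0.11. Without MIX 1 and MIX 8 the median of the endothelial markers was 0.12, with 20 of the 23 higher. Both lists were chosen with earlier results of these data known, and neither count of genes higher in MIX was tested.

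Fibroblasts share PDGFRB with pericytes, and their 16 markers had a median of -0.06, with 6 higher and 10 lower in MIX and 0 at an unadjusted p under 0.05. COL1A2 was at -0.18 ± 0.10, COL3A1 at -0.19 ± 0.12, FBLN2 at -0.47 ± 0.32 and POSTN at -0.17 ± 0.12. PDGFRB had r = -0.04 with their mean (permutation test, not passing after adjustment). The 20 striated muscle markers had a median of -0.02, with 2 genes at an unadjusted p under 0.05, TNNT3 at -0.22 ± 0.05 and MYL1 at -0.31 ± 0.13, both with the lower mean in MIX and neither passing after adjustment. Those 2 genes are 10% of the list, beside 4.79% of all probesets at that threshold. With the mean of this dim list DES had r = -0.12 (permutation p = 0.742, adjusted p = 0.89). TAGLN had r = 0.69 (permutation p = 0.0268, adjusted p = 0.281; rho = 0.83, permutation p = 0.00463, adjusted p = 0.0972). MYH11 had r = 0.65 (permutation p = 0.0398, adjusted p = 0.358; rho = 0.61, permutation p = 0.0656, adjusted p = 0.503), and 0.34 without MIX 8 and ISe 3.

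The 5 genes whose pattern over the 10 arrays was most like the average of the contractile genes, among 18001 genes, were IGHG1, an immunoglobulin heavy chain gene, at r = 0.89, ABCC11 at 0.89, SYT16 at 0.86, FANCA at 0.86 and MYOCD, which encodes myocardin, at 0.86. MYOCD was at 5.50, 5.50, 5.47, 5.62 and 5.50 in the MIX samples, against 5.24, 5.95, 5.54, 5.50 and 5.26 in the ISe samples. These values lie below the array medians, and ISe 3 was the highest for MYOCD as for TAGLN, MYH11 and CNN1. The 5 most like the average of the pericyte genes were TGFBR2, a receptor of transforming growth factor beta, at 0.96, DDX17, an RNA helicase, at 0.94, CEP68 at 0.94, LOC524650 at 0.93 and TNFRSF21 at 0.92. TGFBR2 differed between the groups by 0.10 ± 0.10 log2 (limma adjusted p = 0.945). All 10 were picked as the highest of many values, so their r is a description only.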

How the data were processed

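The deposited values, processed by the authors, were read as log2 signal because their range is 0.54 to 14.17 and array medians lie between 5.99 and 6.04. The submitters' processing notes list GCOS 1.2 and Partek without saying what each did, and the background correction, summarisation and normalisation steps are not given. Correlations between arrays ran from 0.98 to 0.99, and 0 pairs were identical.

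Of 26773 probesets, the platform annotation gives 18457 a single symbol, 688 more than 1 and 7628 no symbol. Genes were named from single-symbol probesets only, and the 19145 with any symbol were tested with lmFit and eBayes of limma 3.58.1 (R 4.3.3), checked on simulated data. Where a gene had several probesets, the one with the highest mean was used. Differences are MIX minus ISe with the SE of that fit.

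The markers and gene lists were chosen with earlier results of these data known, so no list was tested. Named were all measured markers, the 4 genes of smallest p in most lists, and the 5 genes most like each of 2 averages (contractile: TAGLN, MYH11, CNN1 and DES; pericyte: RGS5, PDGFRB, CSPG4 and MCAM). Fewer were named from the striated muscle, macrophage and steroidogenic lists. A list of 8 follicle granulosa markers had a median of -0.08, with 2 higher and 6 lower in MIX. In it 1 gene, HSD17B1, had an unadjusted limma p under 0.05 (12.5% of the list, beside 4.79% of all probesets), with an adjusted p of 0.941. Correlations had 100000 permutations (scipy 1.17.1), two-sided, adjusted within each family. Alternatives were 2 normalisations, filters on dim probesets (25% or 50%), other probeset sets, other moderation, array weights and left-out arrays. The groups share no sample numbers, and the labels give no batch. Figures used matplotlib 3.10.9.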

Additional observations from a re-analysis of the deposited data

Results flagged for a closer look

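In each group of 5 samples the highest and lowest value of every marker was compared with its neighbour by Dixon's ratio, with a critical value of 0.71. Of 18 groups, 2 passed it, where chance flags about 5% of groups. PDGFB in MIX 10, at 8.23, lay far above the next MIX sample at 7.76 (ratio 0.78). PDGFRB in ISe 3, at 8.58, lay far below the next ISe sample at 8.91 (ratio 0.715). PDGFB in ISe 3 came close, at 7.40 against 7.65 (ratio 0.703). In MIX 10 the mean of the 23 endothelial markers was 0.19 log2 above its average over the arrays, the highest of the 10. Over the 10 arrays PDGFB had r = 0.56 with that mean (permutation p = 0.0793, adjusted p = 0.546) and rho = 0.60 (permutation p = 0.0718, adjusted p = 0.503). Without MIX 10 and ISe 3 that r was 0.34. The part of the endothelial markers in the PDGFB value of MIX 10 was not tested.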

How the results depend on the processing

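Over 22 other settings (normalisation, filters, probeset sets, moderation, array weights and left-out arrays) limma called 0 of the 9 markers, with adjusted p-values down to 0.872 and unadjusted p-values down to 0.0612. The median log2 difference of the markers ran from -0.04 (without MIX 1 and MIX 8) to 0.16 (without MIX 9). Filters, probeset sets and moderation could not change a marker's log2 difference, since each marker has 1 probeset, so they bear only on the p-values. Leaving out 1 array at a time called 0 to 1 probesets of the whole table, the 1 without MIX 8. With 1 array left out the log2 difference ran from -0.13 to 0.02 for TAGLN, from -0.04 to 0.21 for MYH11 and from -0.04 to 0.06 for CSPG4. It ran from -0.23 (without MIX 10) to 0 (without ISe 3) for CNN1, from 0.09 (MIX 10) to 0.40 (ISe 3) for DES, from -0.16 (ISe 3) to -0.03 (MIX 9) for RGS5, from 0.02 (MIX 1) to 0.19 (MIX 9) for PDGFRB, from 0.04 (MIX 10) to 0.19 (MIX 1) for PDGFB and from 0.04 (ISe 6) to 0.22 (ISe 5) for MCAM. The sign turned without ISe 3 for TAGLN, without MIX 8 or ISe 7 for MYH11 and without MIX 8, MIX 11 or ISe 7 for CSPG4. Without MIX 1 and MIX 8 together it turned to -0.04 for MYH11, -0.04 for PDGFRB and -0.02 for CSPG4. In the same setting it was 0.25 for PDGFB, -0.16 for RGS5, -0.10 for TAGLN, -0.11 for CNN1, 0.28 for DES and 0.14 for MCAM. None of these differences was called in any setting, and the cause was not tested. No paired analysis was possible because the MIX and ISe samples share no numbers. Signal over background is unknown, so the values of DES below the array medians are less certain.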

Other observations

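ACTG2, smooth muscle gamma-actin, has a probeset of its own and was singled out after its values were seen. It was at 8.04, 9.18, 8.46, 8.94 and 9.00 in MIX 1, 8, 9, 10 and 11, against 8.46, 9.56, 8.47, 8.75 and 8.61 in ISe 2, 3, 5, 6 and 7. Like TAGLN, MYH11 and CNN1 it was highest in ISe 3, while MIX 1 was the lowest. The groups overlapped, with a log2 difference of -0.05 ± 0.25 (limma adjusted p = 0.994). The 9 contractile apparatus genes at their highest in ISe 3 were ACTG2, MYL9, LMOD1, TPM2, FLNA, ACTN1, SYNPO2, KCNMB1 and PLN. MIX 10 held the highest value of 6 others, MYLK, VCL, PDLIM7, CNN2, TAGLN2 and TGFB1I1.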
